A study of Mus musculus with 8 samples.

Results

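The genes described here control how pyruvate enters mitochondrial oxidation in the heart. They were chosen by name as 10 genes in 4 roles, namely the pyruvate dehydrogenase kinases Pdk1, Pdk2, Pdk3 and Pdk4, the pyruvate dehydrogenase phosphatases Pdp1 and Pdp2, the subunits Pdha1 and Pdhb of the dehydrogenase, and the mitochondrial pyruvate carrier genes Mpc1 and Mpc2. Probe sets that the array annotation pairs with exactly 1 symbol were averaged for each gene, which gave values for 9 of the 10 among 22180 genes in all. Mpc2 is not named in that annotation and was not analysed here. Pdk1 and Mpc1 had 2 probe sets each, and the other 7 genes had 1.

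Hearts came from male wild-type mice aged 8 to 10 weeks, of the strain labelled C57BL6JRj, fed chow under 12 h of light and 12 h of dark. The digoxin group received 1 mg/kg digoxin, a cardiac glycoside that inhibits the Na/K-ATPase, by intraperitoneal injection at ZT5 (ZT0 is lights-on), and the vehicle group received the solvent of ethanol, propylene glycol, citric acid and sodium phosphate at the same time. Hearts of both groups were taken at ZT9, and their RNA was measured on Affymetrix arrays of the type Mouse Gene 2.0 ST, 5 for digoxin and 3 for vehicle. The design text counts 4 vehicle samples, but only 3 were available here, and the difference is not explained.

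Pyruvate made by glycolysis or from lactate crosses the inner mitochondrial membrane through a carrier built from MPC1 and MPC2. The pyruvate dehydrogenase complex then turns it into acetyl-CoA. The kinases phosphorylate the E1 alpha subunit (PDHA1) and switch the complex off, and the phosphatases remove that phosphate and switch it on. In the heart this switch sets the balance between glucose and fatty acid oxidation, and Pdk4 is the kinase gene best known for its rise in fasting, when fatty acids, PPAR and FOXO factors and glucocorticoids drive its transcription.

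Expression is given on a log2 scale around a centre of its own for each probe set, which compares arrays but gives no absolute level, so the presence of heart markers could not be checked as a level. Precision is limited by having only 5 and 3 arrays. Of 22180 genes tested with limma, 210 rose and 92 fell in digoxin hearts at an adjusted p below 0.05. Vehicle replicate 3 stood apart by its spread, with an interquartile range of 0.216 over all probe sets, against 0.0792 to 0.115 on the other 7 arrays. Of 8 atrial cardiomyocyte markers 1 rose (Kcna5), and their median change was -0.53. Their mean lay between -0.28 and 1.52 on the digoxin arrays and between 0.14 and 1.89 on the vehicle arrays, a wide range within both groups. In whole-heart RNA, fewer cells of a type and less RNA per cell cannot be told apart.

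The regulatory sequence of 3 of the genes is shown because it carries or lacks the short motifs searched here. Each is the window of 250 bases before the RefSeq gene start (GRCm38.p6), written 5′ to 3′ on the strand of the gene, with motif matches in capitals. Pdk4, the member with the largest difference between the groups, lies at chr6:5496279-5496528 on the minus strand, and Pdk2, the kinase gene of smallest spread in vehicle hearts, at chr11:95041372-95041621 on the minus strand. Pdp2 lies at chr8:104591222-104591471 on the plus strand.

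Pdk4: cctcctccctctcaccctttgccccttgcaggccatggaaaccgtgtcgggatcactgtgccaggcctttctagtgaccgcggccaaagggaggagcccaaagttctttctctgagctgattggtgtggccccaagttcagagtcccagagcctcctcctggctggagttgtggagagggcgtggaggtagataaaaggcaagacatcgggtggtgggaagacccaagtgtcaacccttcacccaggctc

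Pdk2: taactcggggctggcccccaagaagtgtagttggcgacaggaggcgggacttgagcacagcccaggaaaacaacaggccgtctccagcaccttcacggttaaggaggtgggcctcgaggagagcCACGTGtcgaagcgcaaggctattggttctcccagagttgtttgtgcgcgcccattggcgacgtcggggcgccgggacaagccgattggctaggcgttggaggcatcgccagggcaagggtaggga

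Pdp2: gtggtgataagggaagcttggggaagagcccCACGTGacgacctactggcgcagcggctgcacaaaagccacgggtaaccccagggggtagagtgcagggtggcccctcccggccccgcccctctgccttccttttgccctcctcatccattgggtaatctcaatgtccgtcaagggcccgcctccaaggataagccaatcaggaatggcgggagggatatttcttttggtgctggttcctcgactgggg

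The capitals in the Pdk2 and Pdp2 windows mark the E-box CACGTG, which overlaps matches to ACGTG, the core of the hypoxia response element, on both strands. It spans bases 126 to 121 before the start of Pdk2 and bases 219 to 214 before the start of Pdp2. An E-box stands in 6.02% of 32851 such windows of mouse genes, and ACGTG in 16.6%. The Pdk4 window held none of the 8 motifs searched on both strands. These were the 2 above, the steroid receptor half-site AGAACA (in 16.1% of all windows), the glucocorticoid response element, AGAACA followed after 3 bases by TGTTC (0.0304%), the nuclear receptor half-site AGGTCA (14.0%), the PPAR element, AGGTCA repeated after 1 base (0.0335%), the ERR element TCAAGGTCA (0.387%) and the FOXO element TGTTTAC (3.17%). A missing match says only that these letters are not in this window. Windows were found for 9 of the 10 genes, Pdp1 being the exception, and some genes had a second start. AGAACA occurred before the second start of Pdk1, AGGTCA before the second start of Mpc1, and ACGTG in the windows of Pdhb and Pdk3.

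None of the 9 measured genes passed the test. In limma, 0 of 9 had an adjusted p below 0.05, where 1.36% of all genes did (0.947% higher and 0.415% lower), and 1 of 9, Pdk4, had an unadjusted p below 0.05, where 12.3% of all genes did. The digoxin and vehicle arrays overlapped in all 9, while 8.16% of all genes had groups without overlap. Means were higher in digoxin hearts for 7 genes and lower for 2, where 44.4% of all genes had a higher mean. The median log2 change was 0.047 over the 9 genes, against -0.011 over all genes. The 95% interval of the change lay within 1.5-fold in either direction for 8 of the 9 genes, Pdk4 being the exception.

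Pdk4 differed most. RefSeq places it at chr6:5483351-5496278 (GRCm38.p6). Its centred log2 values on digoxin replicates 1 to 5 were 0.069, -0.12, 0.47, 0.25 and 0.23, against 0.13, -0.75 and -0.24 on vehicle replicates 1 to 3. Vehicle replicate 2 was the lowest of all 8 arrays, and vehicle replicate 1 lay above digoxin replicates 1 and 2, so the groups overlapped. Digoxin hearts averaged 0.18 ± 0.22 (SD, n = 5), against -0.28 ± 0.44 (SD, n = 3) for vehicle. This gave a log2 change of 0.46 (SE 0.19, 95% interval 0.027 to 0.90), or 1.38 times the vehicle level, and the test was not passed (limma, adjusted p = 0.372).

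The size of the Pdk4 difference rested on the vehicle arrays. Without vehicle replicate 2 the log2 change was 0.23 (limma, adjusted p = 0.555), and without vehicle replicate 1 it was 0.67 (limma, adjusted p = 0.127). With the mean of the atrial markers as covariate it was 0.56 (limma, adjusted p = 0.213). Spread set Pdk4 apart from the other members as well. Its SD over the 8 arrays was 0.38, higher than that of 98.9% of all genes, while the other 8 members had SDs of 0.065 to 0.19.

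**Figure D1:**
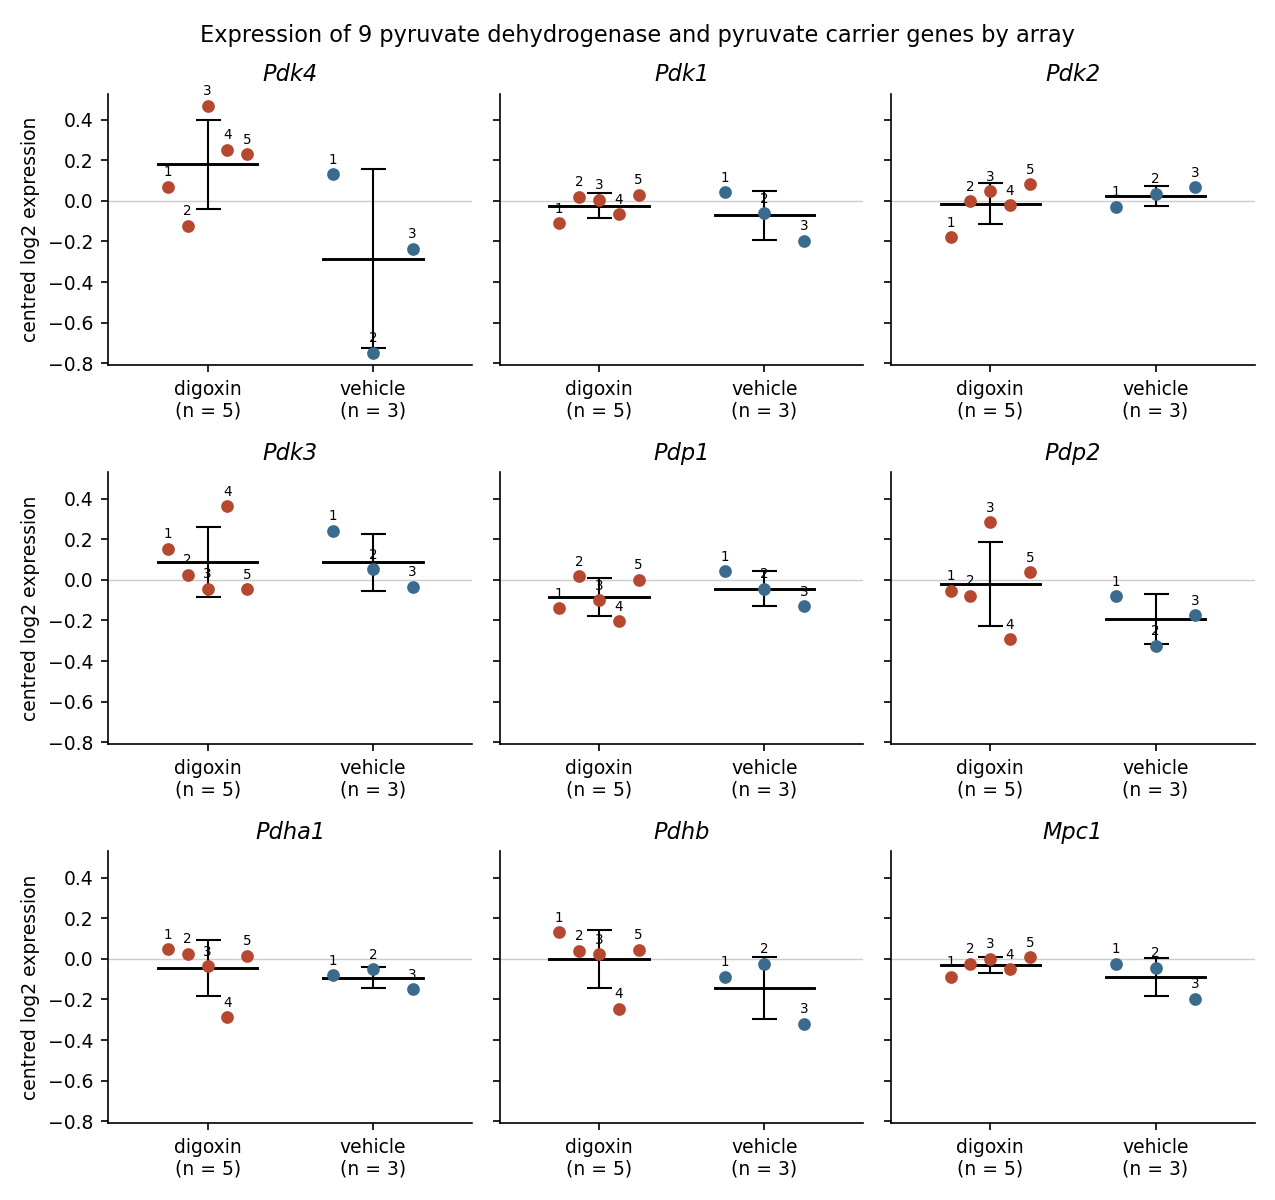
Centred log2 expression (y axis) of 9 genes on 5 digoxin arrays (red, left) and 3 vehicle arrays (blue, right), with the replicate number above each point. Horizontal bars are group means and error bars are SDs. The groups overlap in every panel, and the widest spread is that of Pdk4, between -0.75 and 0.47.

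The other kinase genes lie at chr2:71873215-71903858 (Pdk1), chr11:95026258-95041371 (Pdk2) and chrX:93764616-93832150 (Pdk3). Pdk1, known as a target of the hypoxia factor HIF-1, had values of -0.11, 0.019, 0.0053, -0.066 and 0.030 on digoxin replicates 1 to 5 and of 0.043, -0.062 and -0.20 on vehicle replicates 1 to 3. The highest and the lowest array were both vehicle arrays. Its log2 change was 0.047 (SE 0.062, 95% interval -0.093 to 0.19; limma, adjusted p = 0.801), with 0.065 in one probe set and 0.029 in the other. Without vehicle replicate 3 the change was -0.015.

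Pdk2, a kinase gene expressed in most tissues, had values of -0.18, -0.0024, 0.048, -0.023 and 0.081 on digoxin replicates 1 to 5, against -0.029, 0.035 and 0.068 on vehicle replicates 1 to 3. Apart from the low digoxin replicate 1, all arrays lay within a narrow band. The log2 change was -0.039 (SE 0.063, 95% interval -0.18 to 0.10), and the interval in folds ran from 0.882 to 1.07 (limma, adjusted p = 0.840). Without digoxin replicate 1 the change was 0.0016.

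Pdk3, a kinase gene best known from testis, had values of 0.15, 0.025, -0.044, 0.36 and -0.047 on digoxin replicates 1 to 5, and of 0.24, 0.052 and -0.034 on vehicle replicates 1 to 3. Digoxin replicate 4 and vehicle replicate 1 were the highest of their groups. Those same arrays had the highest atrial marker means of their groups, 1.52 and 1.89. The vehicle arrays had the same order in both, but the digoxin arrays did not. Digoxin replicate 3 had an atrial marker mean of 0.91 with Pdk3 at -0.044, and digoxin replicate 1 had 0.31 with Pdk3 at 0.15. Whether Pdk3 followed the atrial markers was not tested. Digoxin hearts averaged 0.090 ± 0.17 (SD, n = 5), against 0.086 ± 0.14 (SD, n = 3) for vehicle, with a log2 change of 0.0035 (95% interval -0.23 to 0.24; limma, adjusted p = 0.994). Once the atrial markers were a covariate, the change of Pdk3 was 0.10 (limma, adjusted p = 0.525).

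Whether the balance among the kinase genes shifted was tested on the difference between pairs of genes on each array, from which the centre cancels as a constant. Relative to Pdk2, Pdk4 stood at 0.25, -0.12, 0.42, 0.27 and 0.15 on digoxin replicates 1 to 5 and at 0.16, -0.78 and -0.30 on vehicle replicates 1 to 3. The shift was 0.50 (95% interval -0.066 to 1.07) with an exact two-sided permutation p of 0.0536 over 56 assignments, and 0.214 after adjustment over the 8 pairs tested. The smallest p these arrays can give is 0.0179, or 0.143 for a lone pair after adjustment over 8, so a single pair could not have passed. Pdk4 shifted by 0.42 relative to Pdk1 (exact p = 0.107) and by 0.46 relative to Pdk3 (exact p = 0.125). Leaving out vehicle replicate 2 gave shifts of 0.27 relative to Pdk2, 0.18 relative to Pdk1 and 0.24 relative to Pdk3. None of the 8 pairs passed after adjustment (exact permutation test, adjusted p of 0.214 to 0.768), and the intervals leave room for shifts of Pdk4 of up to 1.07 log2 units. Among Pdk1, Pdk2 and Pdk3 the shifts were 0.087, 0.044 and -0.043 for Pdk1 over Pdk2, Pdk1 over Pdk3 and Pdk2 over Pdk3, with exact p of 0.375, 0.768 and 0.696.

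**Figure D2:**
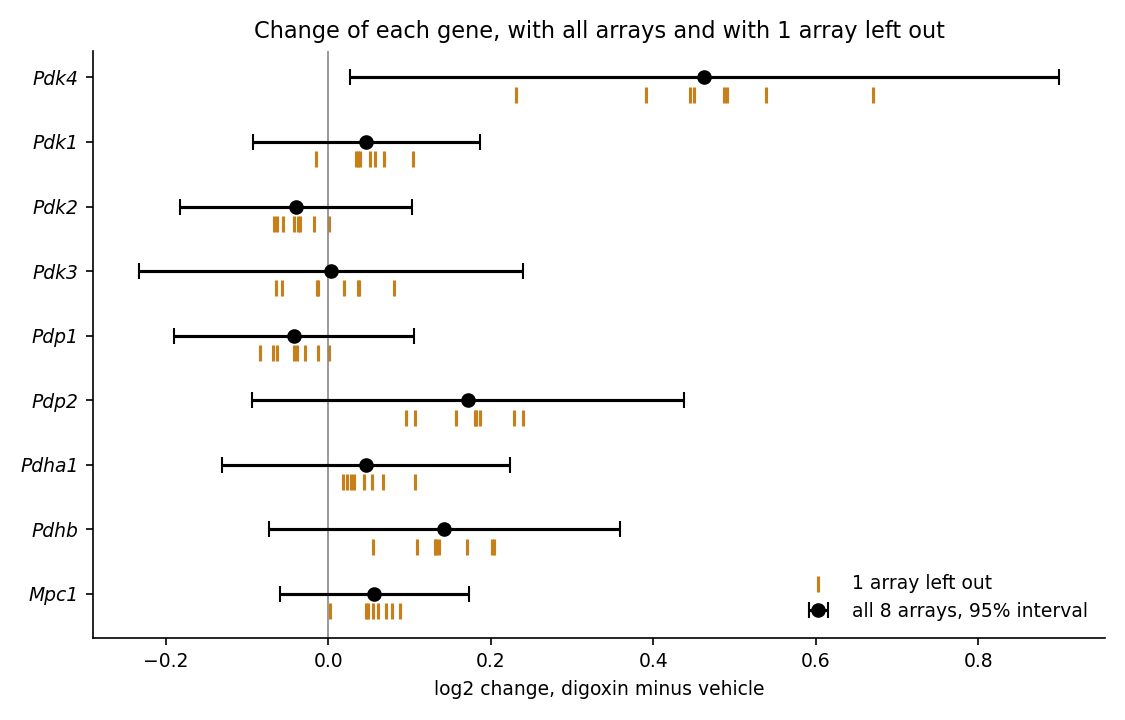
Log2 change, digoxin minus vehicle (x axis), of 9 genes. Black points are values with all 8 arrays and bars are 95% intervals from limma, and each orange tick is the value with 1 array left out. The interval of Pdk4 runs from 0.027 to 0.90, and the intervals of the other 8 genes include 0.

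The phosphatase genes, at chr4:11958183-11966450 (Pdp1) and chr8:104591472-104599026 (Pdp2), did not pass the test. Pdp1 encodes the calcium-stimulated phosphatase of muscle and heart. Its values were -0.14, 0.018, -0.10, -0.20 and 0 on digoxin replicates 1 to 5 and 0.043, -0.045 and -0.13 on vehicle replicates 1 to 3, and the vehicle values fell inside the digoxin range except for vehicle replicate 1. The log2 change was -0.042 (SE 0.065, 95% interval -0.19 to 0.11; limma, adjusted p = 0.837).

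Pdp2 encodes the second phosphatase, known from liver and fat for its response to insulin. It had values of -0.054, -0.078, 0.28, -0.29 and 0.037 on digoxin replicates 1 to 5, against -0.080, -0.32 and -0.17 on vehicle replicates 1 to 3. As in Pdk4, the highest array was digoxin replicate 3 and the lowest was vehicle replicate 2. The log2 change was 0.17 (SE 0.12, 95% interval -0.094 to 0.44; limma, adjusted p = 0.598), and leaving out digoxin replicate 3 gave 0.096, leaving out vehicle replicate 2 gave 0.11. The shift of Pdp2 relative to Pdp1 was 0.21 (95% interval -0.097 to 0.52, exact permutation p = 0.161).

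The genes of the enzyme itself did not pass either. They lie at chrX:160122219-160138430 (Pdha1) and chr14:8165991-8173303 (Pdhb). Pdha1, the X-linked gene of the E1 alpha subunit that carries the regulatory phosphate, had values of 0.048, 0.026, -0.036, -0.29 and 0.015 on digoxin replicates 1 to 5 and of -0.079, -0.051 and -0.15 on vehicle replicates 1 to 3. Digoxin replicate 4 lay below every other array. The log2 change was 0.047 (95% interval -0.13 to 0.22; limma, adjusted p = 0.848), 0.11 without digoxin replicate 4, and -0.0008 once the atrial markers were a covariate.

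Pdhb, the gene of the E1 beta subunit, had values of 0.13, 0.039, 0.024, -0.24 and 0.045 on digoxin replicates 1 to 5, against -0.088, -0.025 and -0.32 on vehicle replicates 1 to 3. The digoxin arrays other than replicate 4 lay above all 3 vehicle arrays. Its log2 change was 0.14 (SE 0.095, 95% interval -0.073 to 0.36; limma, adjusted p = 0.590). The change was 0.20 without digoxin replicate 4 (limma, adjusted p = 0.338) and 0.055 without vehicle replicate 3 (limma, adjusted p = 0.904). Relative to Pdhb, Pdha1 shifted by -0.096 (95% interval -0.21 to 0.018, exact permutation p = 0.0357, adjusted p = 0.214), and by -0.037 without vehicle replicate 3.

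The other subunit genes of the complex showed the same low arrays. On digoxin replicate 4, Pdha1, Pdhb, Dlat (the E2 acetyltransferase), Dld (the E3 dehydrogenase) and Pdhx (the E3-binding protein) lay between -0.29 and -0.21, and their means on the other 4 digoxin arrays were 0.015 to 0.036. On vehicle replicate 3 the 5 genes lay between -0.47 and -0.15, with means of -0.097 and -0.047 on vehicle replicates 1 and 2. One of these 2 arrays was the lowest of the 8 for each of the 5 genes. Genes of the tricarboxylic acid cycle had a similar low on digoxin replicate 4, which was the lowest array for 11 of 13 of them (mean -0.14), but not on vehicle replicate 3 (mean -0.043). Over all genes, digoxin replicate 4 was the lowest array for 15.9% and vehicle replicate 3 for 25.6%. Digoxin replicate 4 also had the highest mean of 7 adipocyte markers (0.47, against -0.14 to 0.13 on the other 7 arrays) and the highest atrial marker mean of its group, and the part of these in the low values was not tested.

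**Figure D3:**
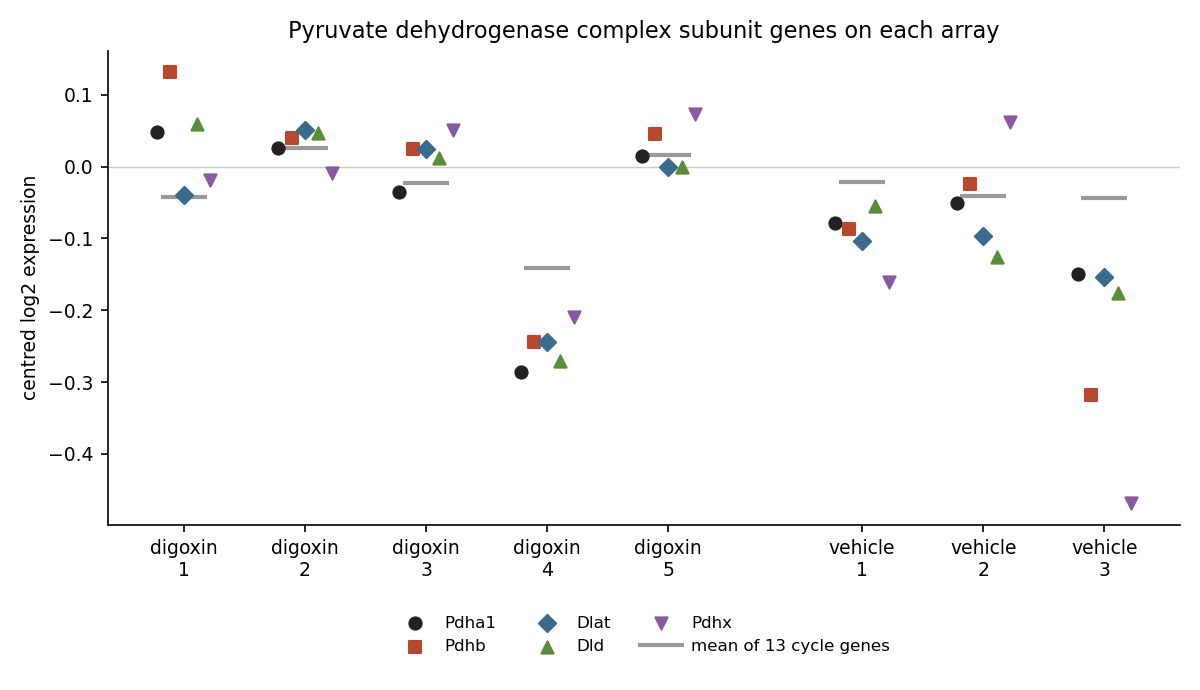
Centred log2 expression (y axis) of 5 subunit genes of the pyruvate dehydrogenase complex on each of the 5 digoxin and 3 vehicle arrays. Grey bars are the mean of 13 genes of the tricarboxylic acid cycle. All 5 subunit genes are between -0.29 and -0.21 on digoxin replicate 4 and between -0.47 and -0.15 on vehicle replicate 3.

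Mpc1, at chr17:8283787-8297667, the measured subunit gene of the pyruvate carrier, was the steadiest member in digoxin hearts. Its values were -0.089, -0.025, 0.0007, -0.050 and 0.0074 on digoxin replicates 1 to 5 and -0.024, -0.043 and -0.20 on vehicle replicates 1 to 3. Only vehicle replicate 3 lay outside the digoxin range. The log2 change was 0.057 (SE 0.051, 95% interval -0.060 to 0.17; limma, adjusted p = 0.695), with 0.080 and 0.033 in its 2 probe sets, and 0.0027 without vehicle replicate 3.

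Beyond the members, 84 of 90 genes in 7 lists around pyruvate oxidation were measured. In limma 4 rose and 1 fell, which is 5.95% of them, against 1.36% of all genes; the lists were chosen with earlier results of these data known. Of the 5 further genes of the complex, which also include the phosphatase regulator Pdpr and the testis form Pdha2, none passed (unadjusted p below 0.05 in none). The 2 of smallest p were Pdpr, at 0.093 (95% interval -0.038 to 0.22; limma, adjusted p = 0.561), and Pdhx, at 0.17 (-0.091 to 0.42; 0.599), which was at 0.027 without vehicle replicate 3. The median change of the list was 0.088. None of 5 measured genes of lipoylation and thiamine supply passed. The thiamine transporter gene Slc19a2 stood at 0.26 (95% interval 0.079 to 0.44; limma, adjusted p = 0.210) and the lipoate synthase gene Lias at 0.19 (-0.0036 to 0.38; 0.416), and leaving out vehicle replicate 3 gave 0.17 for Slc19a2 and 0.077 for Lias.

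Among 15 genes of pyruvate production, transport and use, none passed and the median change was 0.0002. Gpt2, which encodes the mitochondrial alanine aminotransferase that interconverts alanine and pyruvate, stood at 0.33 (SE 0.072, 95% interval 0.17 to 0.49; limma, adjusted p = 0.0736). Slc16a1, the gene of the lactate and pyruvate transporter MCT1, stood at -0.22 (SE 0.055, 95% interval -0.35 to -0.097; limma, adjusted p = 0.120). In Gpt2 every digoxin array, at 0.094, 0.20, 0.11, -0.010 and 0.097, lay above the vehicle arrays at -0.16, -0.40 and -0.13. Slc16a1 had values of -0.058, 0, -0.038, -0.13 and 0.092 on digoxin replicates 1 to 5, all below the vehicle values of 0.15, 0.19 and 0.25.

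Of 9 genes of the related dehydrogenases for branched-chain keto acids and 2-oxoglutarate, 1 rose. This was Ogdhl, which encodes a relative of the E1 subunit of the 2-oxoglutarate dehydrogenase complex. It had values of 0.035, 0.18, 0.27, 0.098 and 0.30 on digoxin replicates 1 to 5, against -0.22, -0.18 and -0.18 on vehicle replicates 1 to 3. The log2 change was 0.37 (SE 0.066; limma, adjusted p = 0.0355). Its call was lost in 6 of the 8 fits that left out 1 array, all but those without digoxin replicate 1 or 4 (highest adjusted p = 0.104 in limma, without vehicle replicate 2), and with the atrial covariate (adjusted p = 0.0638). None of 13 cycle genes passed, with changes between -0.050 and 0.13, and those of smallest p were Suclg2 (0.13, adjusted p = 0.658) and Sdhd (0.056, adjusted p = 0.728), a subunit gene each of succinyl-CoA ligase and of succinate dehydrogenase. Leaving out vehicle replicate 2 gave 0.044 for Suclg2, and leaving out vehicle replicate 1 gave 0.23.

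Of 17 genes of published regulators of kinase gene transcription, 3 rose and 1 fell, where 1.36% of all genes passed in either direction. The median change was 0.16, against -0.011 over all genes. Means were higher in digoxin hearts for 13 of the 17, and for 44.4% of all genes. Like the other lists, this one was chosen with earlier results of these data known. Klf15, a Kruppel-like factor of fasting metabolism, had values of 0.60, 0.77, 0.85, 0.96 and 0.94 on digoxin replicates 1 to 5, against -0.19, -0.015 and -0.35 on vehicle replicates 1 to 3, a log2 change of 1.01 (SE 0.099; limma, adjusted p = 0.0019). Cebpb, a bZIP transcription factor gene, had values of 0.38, 0.31, 0.41, 0.35 and 0.49 in digoxin hearts and of -0.23, -0.24 and -0.31 in vehicle hearts, a log2 change of 0.64 (SE 0.050; limma, adjusted p = 0.00057). In both the groups were well apart.

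Ppara encodes the fatty acid receptor that drives Pdk4 in fasting. Its values were 0.27, 0.45, 0.34, 0.31 and 0.34 on digoxin replicates 1 to 5 and -0.028, -0.11 and 0.010 on vehicle replicates 1 to 3, and it rose by 0.38 on the log2 scale (SE 0.051; limma, adjusted p = 0.0092). Ppargc1b, the gene of the coactivator PGC-1 beta, was the 1 that fell. It had values of -0.44, -0.56, -0.37, -0.59 and -0.31 on digoxin replicates 1 to 5, against 0.20, 0.013 and 0 on vehicle replicates 1 to 3. Its log2 change was -0.53 (SE 0.080; limma, adjusted p = 0.017), and the call was lost without vehicle replicate 1 (adjusted p = 0.055) or 2 (adjusted p = 0.0537). Klf15, Cebpb and Ppara passed in all 8 fits that left out 1 array.

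Of 20 measured lipid genes known to respond to PPAR together with Pdk4, none passed, and the median change was 0.046, or 0.022 without vehicle replicate 2 and 0.13 without vehicle replicate 1. Changes ran from -0.21 in Cpt1a to 0.36 in Angptl4, with 14 means higher in digoxin hearts and 6 lower. The 2 of smallest p were the fatty acid transporter gene Cd36 at 0.12 (95% interval 0.014 to 0.22; limma, adjusted p = 0.340) and the lipid droplet gene Plin5 at 0.28 (0.020 to 0.54; 0.365). Their mean on each array was lowest on vehicle replicate 2 (-0.22), the array that was also lowest in Pdk4, and 0.082 on vehicle replicate 1, the highest vehicle array in Pdk4. On digoxin replicates 1 to 5 the mean of this list was -0.18, -0.028, 0.042, -0.12 and 0.092. There the order differed from that of Pdk4, which was lowest on digoxin replicate 2 (-0.12) and highest on digoxin replicate 3 (0.47).

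**Figure D4:**
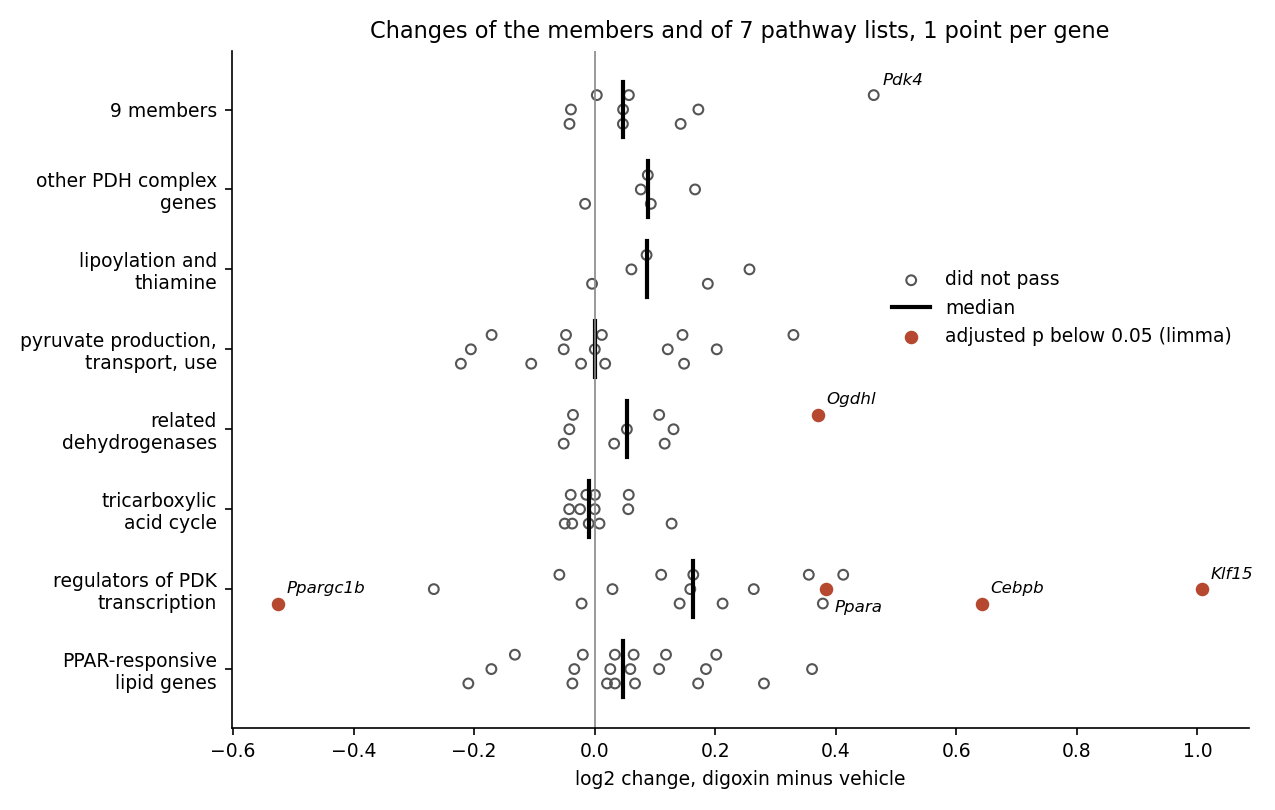
Log2 change, digoxin minus vehicle (x axis), of each gene, with the 9 members in the top row and 7 lists below. Filled points passed limma at an adjusted p below 0.05, open points did not, and black bars are medians. Klf15 at 1.01 and Ppargc1b at -0.53 are the outermost genes, and Pdk4 at 0.46 is an open point.

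The genes whose values over the 8 arrays were most like those of Pdk4 were sought by the root mean square difference, after each gene was set relative to its vehicle mean, among 17431 genes other than predicted, small RNA and chemoreceptor genes. The median difference over these genes was 0.47 log2 units. The 4 closest were Cyp2b10, a cytochrome P450 gene, at 0.17, Tacc2 at 0.19, the zinc finger gene Zfp39 at 0.21 and Wipf3 at 0.21. In all 4 of these genes vehicle replicate 2 was the lowest array, as in Pdk4. They were picked for likeness to Pdk4 over the same 8 arrays, so a shared low array is largely fixed by the choice.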

How the data were processed

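Per the series design text and the labels, the authors normalised the arrays by RMA (Robust Multi-array Average) within Galaxy and used limma, with versions not given in the sources used here. In the deposited table, log2 values have a centre of their own in each probe set. What the centre refers to is not stated, and it is taken as a constant that cancels between arrays; the log base is taken as that of the method. Column medians lay between -0.0058 and 0.0087.

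Of 34351 probe sets, 23521 had 1 gene symbol in the platform annotation, 1814 had several and 9016 had none. Those with 1 were averaged per gene (22180 genes). Digoxin was compared with vehicle by limma 3.58.1 in R 4.3.3 (lmFit, eBayes, two-sided, no covariate, Benjamini-Hochberg over all genes, threshold 0.05; 6 residual and 2.75 prior degrees of freedom). SDs are between arrays, each taken as 1 heart, so p covers the spread between these arrays alone, which may be technical. Array numbers go from 10 to 12 for vehicle and from 13 to 17 for digoxin, so array order cannot be told apart from treatment. Pair shifts used an exact permutation test over all 56 assignments, and their intervals the pooled spread.

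Members and lists were chosen with earlier results of these data known. Named were all members, in each list every gene that passed or else the 2 of smallest p, and the 5 genes most like Pdk4, of which 1, which passed the test, is not reported here. Alternatives covered normalization, probe sets, genes tested, variance model, array weights, threshold, replicate block, the atrial covariate and arrays left out. Promoter windows and gene positions are from RefSeq, GRCm38.p6. Arrays of the same replicate number showed no sign of pairing: the correlations of deviations were -0.197, -0.018 and 0.024. With only 3 vehicle arrays this check cannot exclude pairing.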

Additional observations from a re-analysis of the deposited data

Results flagged for a closer look

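Examined were 17 sets of 5 digoxin values, 9 for genes and 8 for pairs of genes. In 2 of them 1 array stood far from the rest, where chance gives about 1 set in 20. The pairs reuse the genes, so the sets are not independent, and both finds fell on the same array. Pdha1 stood at -0.2864 on digoxin replicate 4, against -0.036 to 0.048 on the other 4 digoxin arrays. Pdhb stood at -0.2448 on the same array, against 0.024 to 0.13 on the others.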

How the results depend on the processing

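None of the 9 members passed in limma under any alternative run; for the pairs these arrays are too few for a lone pair to pass. The adjusted p of Pdk4 lay between 0.127 and 0.633 over its alternatives. The direction turned for Pdk1 (-0.0044 without digoxin replicate 4 and vehicle replicate 3 together). It turned for Pdk3 (-0.0196 with quantile normalization, -0.0482 with array weights, -0.0415 with the replicate block, -0.1246 without those 2 arrays). It also turned for Pdha1 (-0.0008 with the atrial covariate) and for Pdk2 minus Pdk3 (0.0035 with quantile normalization, 0.109 without those 2 arrays). In the block fit, digoxin replicates 4 and 5 have no vehicle partner. The change there comes from replicates 1 to 3 alone. The cause of the other turns was not tested. With 1 array left out, the change lay between -0.0149 and 0.1043 in Pdk1, -0.0663 and 0.0016 in Pdk2, -0.0644 and 0.0807 in Pdk3, and -0.0844 and 0.0014 in Pdp1. For Pdk1 minus Pdk3 it lay between -0.0039 and 0.1219, and for Pdk2 minus Pdk3 between -0.147 and 0.0392.

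Over all genes, 76 rose and 24 fell without eBayes moderation, 11 and 1 with the replicate block, and 327 and 166 at a threshold of 0.1. The falls numbered 320 with array weights and 282 when digoxin replicate 4 and vehicle replicate 3 were left out. With 1 array left out, 123 to 185 rose, with 133, 129 and 123 without digoxin replicates 2, 3 and 5, and 29 to 189 fell, with 45, 37, 45 and 43 without digoxin replicates 1, 2, 3 and 5, and 29 and 189 without vehicle replicates 2 and 3. Of the listed genes, 0 rose and 0 fell with the replicate block, 7 rose at a threshold of 0.1, 0 fell without moderation and 2 fell with the atrial covariate; 3 to 5 rose and 0 to 2 fell with 1 array left out. With the block, Klf15 had an adjusted p of 0.132, Cebpb 0.12, Ppara 0.331, Ppargc1b 0.204 and Ogdhl 0.313 in limma. That fit takes its changes from replicates 1 to 3 alone and has fewer residual degrees of freedom, so its counts are not those of all arrays. Gpt2 passed with array weights (adjusted p = 0.0118) and when those 2 arrays were left out (0.0386), and Slc16a1 with the atrial covariate (0.0351). Ogdhl did not pass with the atrial covariate (0.0638), without those 2 arrays (0.054) or without moderation (0.143), nor Ppargc1b without moderation (0.106). Tacc2, at 0.051 with all arrays, passed with quantile normalization (0.035), probe sets of several symbols (0.0475), protein-coding genes alone (0.0443), array weights (0.0076), those 2 arrays left out (0.0446), and without vehicle replicate 2 (0.0306) or 3 (0.0315), and Cyp2b10, at 0.0671 with all arrays, passed with array weights (0.0289).

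List medians moved for lipoylation and thiamine (0.0429 with array weights, 0.0466 without those 2 arrays, 0.0473 to 0.1286 with 1 array left out), for pyruvate production and use (-0.0455, -0.0235, and -0.0233 to 0.0339), and for the regulators (0.1252 with array weights, 0.2033 with the atrial covariate, 0.1405 to 0.2118 with 1 array left out). The median of the lipid genes lay between 0.0217 and 0.1332 with 1 array left out. Centred values hold no signal over background.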
